A study of Mus musculus with 12 samples.

Results

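The hippocampus of mice lacking En2 was compared with that of their WT littermates across all genes on the array, by function, gene family and cell type. The comparison takes the 6 arrays labelled as hippocampus, 3 En2KO (En2-/- below) against 3 En2WT (WT below), of the 12 arrays in the series, the other 6 being cerebellum. The study took tissue from 3 adult mice per genotype, and each array was hybridised with RNA of entire hippocampus labelled with the single dye Cy3. The En2-/- mice carry the En2tm1Alj allele, which lacks the homeobox, in every cell. The line began on a mixed 129Sv and C57BL/6 and outbred background and was crossed at least 5 times to C57BL/6, and both genotypes came from matings of heterozygotes, and were 3 to 5 months old. DNA near the En2 locus and any other 129Sv DNA still carried by the line cannot be told apart from the loss of En2 in this comparison.

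En2 is a homeobox transcription factor that patterns the midbrain and the hindbrain of the embryo and is also expressed in the adult brain. The hippocampus is a forebrain structure of excitatory pyramidal neurons in the CA fields, granule cells in the dentate gyrus and local inhibitory interneurons. Its excitatory synapses load glutamate into vesicles, release it through SNARE proteins and synaptotagmins, and receive it with AMPA and NMDA receptors held in place by scaffold proteins. Microglia, astrocytes, oligodendrocytes and vessel cells share the tissue, and the choroid plexus, the meninges, the ependyma and the thalamus adjoin it.

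Leaving aside control spots, an array carried 43379 spots, of which 62.3% to 67.0% were well above background and none was saturated. The arrays correlated with each other at Pearson r from 0.962 to 0.989 across genes, which are not independent replicates. The lowest values were those of En2-/- replicate 1, whose deviation from its genotype mean had an SD over genes of 0.38, against 0.25 to 0.32 on the other arrays. This array also stood apart in gene lists given below, so results that rest on it are given without it as well. Each slide held 1 array of either genotype, and the WT array was always at position 3 and the En2-/- array at position 4 of its slide, so that array position and genotype cannot be told apart. Against the 6 cerebellum arrays, all 6 hippocampus arrays were higher for 10 of 11 forebrain glutamatergic, 8 of 10 CA1, 5 of 9 CA2, 4 of 8 CA3 and 6 of 10 dentate granule neuron genes tested, and lower for 1, none, 2, 1 and 2. All 6 arrays had Xist, the transcript of the inactive X chromosome, between 12.25 and 12.86 log2 units, and the Y-linked genes Ddx3y, Eif2s3y, Kdm5d and Uty were well above background on no array. The En2 probe lies outside the deleted part of the gene and checks nothing. It read 7.25, 7.83 and 7.46 in WT and 7.98, 6.85 and 7.02 in En2-/- hippocampus, a difference of -0.23 ± 0.32 (SE, n = 3 per genotype, adjusted p = 0.71).

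Of 21113 genes named on the array, 14962 were tested, of which 14323 were well above background on all 6 arrays, 191 on all arrays of En2-/- mice alone and 448 on all arrays of WT mice alone. Values are log2 of normalized intensity, and differences are En2-/- minus WT. At an adjusted p under 0.1 (limma, Benjamini-Hochberg over all tested genes), 495 genes (3.31%) were called. Among them 241 (1.61%) were higher and 254 (1.7%) were lower in En2-/- hippocampus. The median size of a called difference was 1.14, and the smallest was 0.66, against a median SE over all genes of 0.21. In 2262 genes (15.1%) the 3 En2-/- values all lay above the 3 WT values, and in 1688 genes (11.3%) all lay below them. Over all tested genes the median difference was 0.05, the quartiles were -0.21 and 0.31, and 55.8% were above 0. Of all 14962 tested genes, 2929 had an unadjusted p under 0.05, the background for such counts in the lists below. The rank product named in the study's methods, at P under 0.005 in each direction, called 250 genes higher and 301 lower. Of the genes called by limma, 494 had the same sign on all 3 slides, which their selection on the same 6 arrays nearly fixes. With the slide as a block, 185 of them were still called. With 1 array left out, between 98 genes (without WT replicate 1) and 594 genes (without WT replicate 3) were called. Of the 495, 77 were called whichever array was left out and 65 in no such fit. Of 218 further probes for 165 called genes, 164 (75.2%) had the direction of the called probe, against 60.7% for genes without a call.

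The leading genes well above background on all 6 arrays were Fn3krp, Ocel1, Olfr921, Abhd1 and Exoc3l4 among those that rose and Rrp7a, Usp53, Mospd3, Fcrls and Gbp7 among those that fell. Each of these differences is read by 1 chosen probe of 60 bases, so the middle 30 bases of the leading 2 probes in each direction are printed here, in lower case and 5′ to 3′ as on the array, with mm9 positions.
Fn3krp, chr11:121292029-121292058, plus strand: ctaaaatcaataacgttccatttgcttatg
Ocel1, within a probe that the files place at chr8:73896648-73896850, plus strand, a span longer than the probe: gcagctcatgtcaggagagagtttgagaag
Rrp7a, chr15:82946548-82946577, minus strand: atgtaggtatctgagctgtgtatatattac
Usp53, chr3:122634480-122634509, minus strand: ctggaacagagttatggattgaaaacagcc

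Fn3krp, which encodes a kinase that removes sugars from glycated proteins, read 4.87, 5.27 and 5.02 in WT and 9.79, 9.75 and 9.79 in En2-/- hippocampus. The genotypes were far apart, 26.4-fold higher in En2-/- mice (4.72 ± 0.17, SE, adjusted p = 5.32e-05), and no second probe was measured. Rrp7a, a ribosomal RNA processing factor, read 13.003, 12.35 and 12.55 in WT and 9.28, 9.24 and 8.73 in En2-/- hippocampus. Its chosen probe fell by 3.55 ± 0.24 (adjusted p = 0.000766), while its second probe differed by 0.71, the other way. Usp53, a protein of cell junctions related to the ubiquitin proteases, fell by 2.55 ± 0.20 (adjusted p = 0.00227), and its second probe differed by 0.08. For Abhd1 (2.35 ± 0.19) and Mospd3 (-3.10 ± 0.30) the second probe moved as far, by 2.42 and -3.28. Gbp7, an interferon-induced GTPase, read 7.04, 6.91 and 6.87 in WT and 5.38, 5.42 and 5.29 in En2-/- hippocampus and fell by 1.58 ± 0.15 (adjusted p = 0.00614).

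Genes of the synapse were mostly below 0. Among 53 synaptic vesicle and release genes tested, 43 were below 0, the median difference was -0.24 against 0.05 for all genes, and 4 were called, all lower (7.55% against 1.7%). In 18 of them (34.0% against 11.3%) the genotypes did not overlap and the En2-/- values lay below. Among 35 postsynaptic scaffold genes, 29 were below 0 with a median of -0.42. Of these, 2 (5.71% against 1.7%) fell, and 11 (31.4% against 11.3%) had all En2-/- values below the WT values and none had them above. The synaptic adhesion list was closer to the background, with a median of -0.16 over 48 genes, 1 gene higher and 2 lower (6.25% called against 3.31%). Its median was -0.04 without En2-/- replicate 1, and that of the scaffold list was -0.27. Without WT replicate 1 or En2-/- replicate 3 no vesicle or scaffold gene was called, without WT replicate 2 or En2-/- replicate 1 or 2 at most 2 in either list, and without WT replicate 3, 5 and 4.

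**Figure D1:**
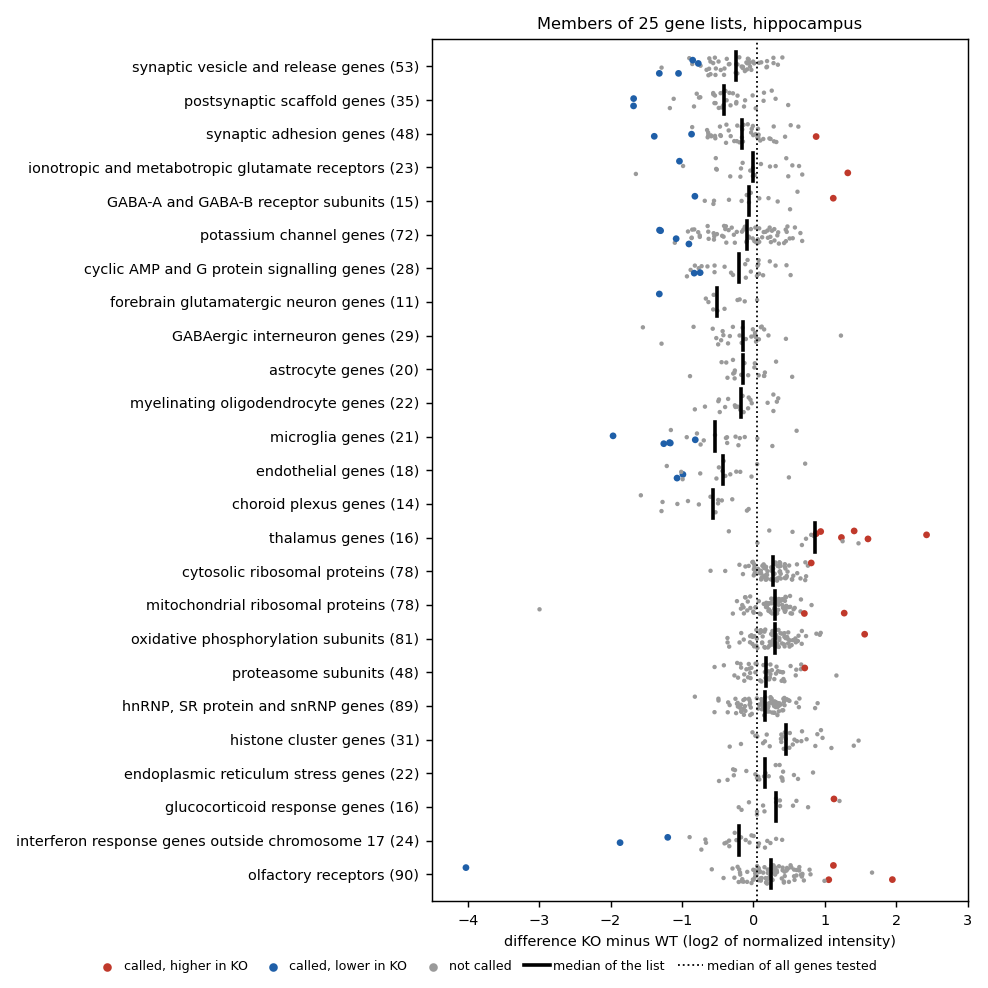
Difference between En2-/- (KO) and WT hippocampus, in log2 of normalized intensity, for each tested member of 25 gene lists (number tested in parentheses); red and blue points are genes called higher and lower by limma at an adjusted p under 0.1, grey points are not called, bars are list medians and the dotted line is the median of all tested genes. The medians of the vesicle (-0.24) and scaffold (-0.42) lists lie left of the dotted line at 0.05, and those of the ribosomal and oxidative phosphorylation lists (0.27 to 0.30) right of it.

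Slc17a7, the vesicular glutamate transporter of forebrain excitatory neurons, read 13.27, 12.64 and 12.45 in WT and 11.35, 11.53 and 11.52 in En2-/- hippocampus. All 3 WT arrays were brighter than all 3 En2-/- arrays, and the gene fell by 1.32 ± 0.23, or 2.49-fold (adjusted p = 0.0442). Syp, the vesicle membrane protein synaptophysin, read 14.95, 14.41 and 14.45 in WT and 13.38, 13.74 and 13.54 in En2-/- hippocampus. It fell by 1.05 ± 0.21 (adjusted p = 0.0618). The other called members were Sh3gl2, endophilin A1 of vesicle endocytosis (-0.85 ± 0.17, adjusted p = 0.063), and Napb, a SNAP protein that recycles SNARE complexes (-0.77 ± 0.17, adjusted p = 0.082). The synapsins that head the list had no call on their chosen probes, with -0.08 for Syn1, -0.17 for Syn2 and 0.18 for Syn3. The study, by contrast, listed Syn1 as lower in En2-/- hippocampus on its arrays and reported a change by qPCR.

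Dlg4, the scaffold PSD-95 of excitatory synapses, read 11.02, 12.002 and 11.22 in WT and 9.17, 10.15 and 9.89 in En2-/- hippocampus. The groups did not overlap, the gene fell by 1.68 ± 0.33 (adjusted p = 0.063), and a second probe differed by -1.10. Cacng8, an auxiliary AMPA receptor subunit, read 9.86, 9.08 and 8.75 in WT and 7.52, 7.84 and 7.30 in En2-/- hippocampus, a fall of 1.68 ± 0.30 (adjusted p = 0.045). The other members of the PSD-95 family differed by 0.14 for Dlg1, -0.55 for Dlg2 and 0.15 for Dlg3, with no call. Among adhesion genes Lrrc4b (-1.39 ± 0.25, adjusted p = 0.048), a leucine-rich repeat ligand at excitatory synapses, and Nlgn2 (-0.87 ± 0.19, adjusted p = 0.079), the neuroligin of inhibitory synapses, fell, while Ntng1, netrin G1 of thalamic axons, rose by 0.88 ± 0.19 (adjusted p = 0.081). With the slide as a block, Cacng8 (adjusted p = 0.075), Dlg4 (0.039) and Lrrc4b (0.096) kept their calls and the other synaptic genes named here did not, with adjusted p from 0.12 to 0.20.

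Glutamate and GABA receptor genes had medians close to that of all genes. Of 23 glutamate receptor genes, 10 were above and 13 below 0, with a median of -0.01, which was 0.08 on the 75th percentile scale described below. Their quartiles were -0.42 and 0.38, and 8 had an unadjusted p under 0.05. Of the 23, 1 was called higher and 1 lower (8.70% against 3.31% of all genes). Grm2, a presynaptic metabotropic receptor, read 7.88, 7.78 and 7.38 in WT and 9.15, 9.02 and 8.84 in En2-/- hippocampus. It rose by 1.32 ± 0.19 (adjusted p = 0.026) on this probe, while a second probe differed by -0.89. Grin1, the obligate NMDA receptor subunit, read 10.17, 9.60 and 9.31 in WT and 8.54, 8.82 and 8.61 in En2-/- hippocampus, a fall of 1.04 ± 0.24 (adjusted p = 0.093). Of 15 GABA receptor genes 2 were called (13.3% against 3.31% of all genes). Gabra4, a subunit of extrasynaptic GABA-A receptors in the dentate gyrus and thalamus, rose by 1.12 ± 0.20 (adjusted p = 0.044). Gabbr2, a GABA-B subunit, fell by 0.82 ± 0.17 (adjusted p = 0.075). The GABA receptor median was -0.06, and 0.14 without En2-/- replicate 1. Of 10 acetylcholine receptor genes 6 were above 0, with a median of 0.27 that was 0.03 without En2-/- replicate 2. None of them was called by limma, and 1 had an unadjusted p under 0.05. Gabra4 read 12.71, 12.37 and 12.86 in WT and 13.84, 13.92 and 13.53 in En2-/- hippocampus.

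Among ion channels, 4 of 72 potassium channel genes fell and none rose (5.56% against 1.7%), with a list median of -0.10. They were Kcnj11, the pore of KATP channels (-1.32 ± 0.20), Kcnip2 (-1.30 ± 0.28) and Kcnip3 (-0.90 ± 0.19), which bind A-type channels, and Kcnk2, a leak channel (-1.08 ± 0.24), with adjusted p from 0.028 to 0.083. Among voltage-gated sodium channel genes Scn1a, the channel prominent in interneurons, read 11.49, 11.05 and 11.07 in WT and 9.95, 10.17 and 9.64 in En2-/- hippocampus and fell by 1.29 ± 0.21 (adjusted p = 0.038). Signalling genes next to these receptors included falls in Adcy3, an adenylyl cyclase (-0.83 ± 0.19, adjusted p = 0.089), and Prkacb, a catalytic subunit of protein kinase A (-0.75 ± 0.18, adjusted p = 0.096). In the cyclic AMP list 10 of 28 genes (35.7% against 11.3% of all genes) had all En2-/- values below the WT values, and 1 had them above.

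Transport and guidance genes added a few calls. Of 33 kinesins 3 (9.09% against 1.7%) were called, all lower, and 0 to 4 kinesins were called with 1 array left out. Klc2, a light chain of the transport motor, fell by 0.91 ± 0.16 (adjusted p = 0.044), and Kif18a and Kif7 fell by 0.80 ± 0.16 and 1.43 ± 0.31. Map1b, a microtubule protein of growing axons, fell by 1.72 ± 0.23 (adjusted p = 0.018), and its second probe differed by -0.55. Of 66 guidance genes 2 were called, both lower, a share (3.03%) near the 3.31% of all genes called in either direction. Sema3e (-1.58 ± 0.19, adjusted p = 0.014) and Sema4c (-0.76 ± 0.16, adjusted p = 0.075) fell. Both further Sema3e probes were also below 0, at -0.55 and -0.41.

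**Figure D2:**
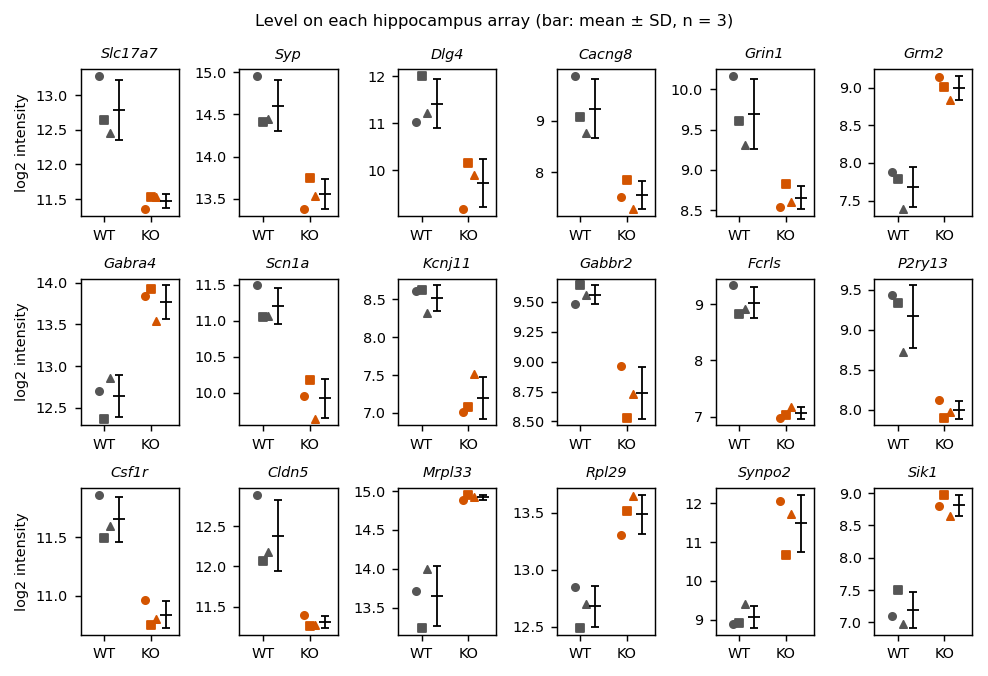
Level of 18 genes on each hippocampus array, in log2 of normalized intensity, in WT (grey) and En2-/- (KO, orange) mice; circles, squares and triangles are replicates 1, 2 and 3, and bars are mean ± SD (n = 3), with a separate vertical scale for each gene that does not start at 0. The genotypes do not overlap for any of these genes, which were all called by limma.

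Genes of protein synthesis and respiration lay on the other side of 0, by small differences spread over many genes. Cytosolic ribosomal protein genes were above 0 in 70 of 78 (median 0.27), mitochondrial ribosomal protein genes in 64 of 78 (median 0.30) and oxidative phosphorylation genes in 70 of 81 (median 0.30). All En2-/- values lay above all WT values in 24 (30.8%), 32 (41.0%) and 29 (35.8%) of these, against 15.1% of all genes, and below them in 1, 2 and none. Few single members passed the test, and those that did rose. They were Rpl29 in the first list (1.28% against 1.61% of all genes), Mrpl33 and Mrps22 in the second (2.56%) and Cox7b2, a testis form of a cytochrome oxidase subunit, in the third (1.23%). Without WT replicate 2 the medians were 0.15, 0.21 and 0.18, the lowest with any array left out. In the second list Mrpl11 had a value of -3.00 with an SE of 2.33 and was not well above background on 1 of the En2-/- arrays.

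Mrpl33 read 13.71, 13.24 and 14.002 in WT and 14.88, 14.95 and 14.93 in En2-/- hippocampus. It rose by 1.27 ± 0.22 (adjusted p = 0.042). Rpl29 read 12.85, 12.49 and 12.71 in WT and 13.31, 13.52 and 13.65 in En2-/- hippocampus. It rose by 0.81 ± 0.18 (adjusted p = 0.082), and its 3 further probes differed by 0.67 to 0.97. Cox7b2, dim on these arrays, rose by 1.56 ± 0.35 (adjusted p = 0.082).

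Other basal lists lay on the same side. Histone cluster genes were above 0 in 28 of 31 with a median of 0.45, and 11 (35.5% against 15.1%) did not overlap upward. None was called by limma, and 11 had an unadjusted p under 0.05, all higher. The rank product called 2, both higher, against 250 called higher of all 14962 tested genes. Many histone genes are near-identical copies, so that their probes may not be independent. Proteasome genes had a median of 0.17 with Psmg4, an assembly chaperone, higher (0.72 ± 0.15, adjusted p = 0.078). Splicing factors and snRNP proteins (median 0.16 over 89 genes) and endoplasmic reticulum stress genes (median 0.16 over 22) had no limma or rank product call. In these lists 11 and 5 genes had an unadjusted p under 0.05, against 2929 of all 14962 tested genes. Of their members 25.8% and 36.4% did not overlap upward, again against 15.1%. Translation initiation factors, by contrast, had a median of 0.04, close to all genes, with Eif2ak2, the interferon-induced kinase PKR, higher (1.89 ± 0.30, adjusted p = 0.036) and Eif4g1, the cap-complex scaffold, lower (-0.82 ± 0.15, adjusted p = 0.050). A second Eif4g1 probe differed by -0.03.

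The size of these shifts depended on the scaling for bright genes. With each array scaled to its 75th percentile in place of quantiles, the median of all genes moved from 0.05 to 0.12 and that of the brightest quintile from 0.06 to 0.28. On that scale the medians were 0.52 for cytosolic ribosomal, 0.43 for mitochondrial ribosomal and 0.55 for oxidative phosphorylation genes, and -0.16 for vesicle and -0.26 for scaffold genes, so that no direction changed. Glycolysis genes, 16 of 19 of which were below 0 (median -0.15) after quantile normalization, had a median of 0.11 on that scale.

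The ribosomal, oxidative phosphorylation and histone lists hold short genes, and the synaptic lists hold long ones. The median span was 3.17 kb for ribosomal protein and 128 kb for scaffold genes against 23.2 kb for all genes. Other lists given below did not follow this order. The thalamus list, with a median difference of 0.86, had a median span of 118 kb. The microglia list (-0.54) and the forebrain glutamatergic list (-0.51) each had one of 11.3 kb. By gene span, taken from the reference gene table (GRCm38.p6) for 97.8% of tested genes, the median difference was 0.16, 0.08, 0.05, 0.01 and -0.03 from the shortest to the longest quintile. The share of genes with all En2-/- values above the WT values went from 21.9% to 9.26%, and the share below from 7.62% to 14.9%. In the shortest quintile the 3 En2-/- arrays had median levels of 0.16, 0.15 and 0.18 above the WT mean, against 0.03, -0.04 and 0.01 for the WT arrays. In the longest quintile they overlapped, with -0.08, -0.04 and 0.00 against -0.04, 0.09 and -0.03. In cerebellum the medians ran the other way, from -0.08 in the shortest to 0.04 in the longest quintile.

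Set against the median of their own length quintile, ribosomal protein genes differed by 0.11, mitochondrial ribosomal protein genes by 0.16, oxidative phosphorylation genes by 0.18, histone genes by 0.31, vesicle genes by -0.28 and scaffold genes by -0.39. Microglia genes differed by -0.67 and forebrain glutamatergic genes by -0.57 in the same way. The part of gene length in these values was not tested. By the GC content of the probe the quintiles ranged from 0.08 in the lowest to 0.03 in the highest, and by level from 0.05 to 0.06.

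**Figure D3:**
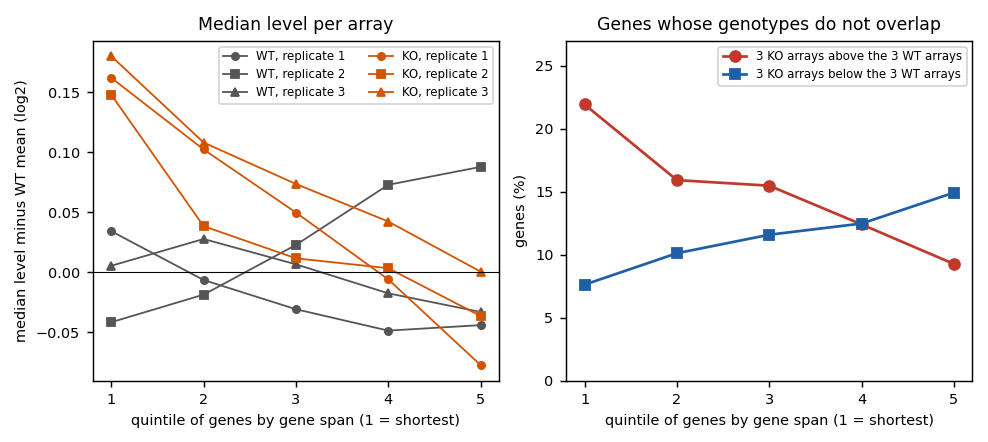
Left, median level of tested genes on each hippocampus array relative to the WT mean (log2), by quintile of gene span from shortest (1) to longest (5), for WT (grey) and En2-/- (KO, orange) replicates 1 to 3. Right, percent of genes in each quintile whose 3 En2-/- values all lay above (red) or below (blue) the 3 WT values; the red line falls from 21.9% to 9.26% and the blue line rises from 7.62% to 14.9%.

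Among the cell type lists, microglia genes had the largest share called lower. Of 21 genes tested 18 were below 0 with a median of -0.54, 5 (23.8% against 1.7%) were called lower and none higher, and 15 (71.4% against 11.3%) had all En2-/- values below the WT values. Fcrls, an Fc receptor-like gene of microglia, read 9.34, 8.83 and 8.91 in WT and 6.98, 7.03 and 7.17 in En2-/- hippocampus. It fell by 1.97 ± 0.19, or 3.91-fold (adjusted p = 0.00614), and a second probe differed by -1.09. P2ry13, a purine receptor (-1.16 ± 0.22), Csf1r, the receptor for the growth factor that microglia need to survive (-0.82 ± 0.17), Siglech (-1.26 ± 0.29) and the complement receptor chain Itgam (-1.18 ± 0.28) also fell, with adjusted p from 0.056 to 0.095. Csf1r read 11.87, 11.49 and 11.60 in WT and 10.97, 10.75 and 10.80 in En2-/- hippocampus.

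Cx3cr1, the fractalkine receptor, had all En2-/- values below the WT values without a call (-1.16, adjusted p = 0.112). Not all microglia genes were lower, as Aif1, which encodes IBA1, read higher on all 3 En2-/- arrays (0.60 ± 0.18, adjusted p = 0.148). In whole tissue, fewer cells of a type and less RNA per cell cannot be told apart. The list's median relative to the WT mean was 0.22, -0.07 and -0.09 on the WT arrays and -0.47, -0.66 and -0.49 on the En2-/- arrays, and it was -0.57 without En2-/- replicate 1. With 1 array left out, 1 to 4 of the genes were called. With the slide as a block, 1 of the 5 calls held, that of Fcrls (adjusted p = 0.031). The median within the 3 slides was -0.80, -0.56 and -0.32.

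Endothelial genes were also lower, with 15 of 18 below 0, a median of -0.43 and 7 (38.9% against 11.3%) that did not overlap downward. Of them 2 (11.1% against 1.7%) were called, and none was called without WT replicate 1 or 2 or without En2-/- replicate 2 or 3. Cldn5, the claudin of the blood-brain barrier, read 12.89, 12.07 and 12.18 in WT and 11.40, 11.26 and 11.27 in En2-/- hippocampus. It fell by 1.07 ± 0.24 (adjusted p = 0.082), and the adhesion molecule Pecam1 fell by 0.99 ± 0.23 (adjusted p = 0.092). Of 11 mural cell genes 2 (18.2% against 1.7%) were called, both lower. They were Myh11, the smooth muscle myosin (-1.04 ± 0.20, adjusted p = 0.058), and Rgs5, a pericyte gene (-0.93 ± 0.20, adjusted p = 0.075), and a second Rgs5 probe differed by 0.08. None of these 4 calls held with the slide as a block (adjusted p from 0.12 to 0.17). Astrocyte genes (median -0.15 over 20), oligodendrocyte genes (-0.17 over 22, -0.33 without En2-/- replicate 1 and -0.05 without replicate 2) and oligodendrocyte precursor genes (0.00 over 10) had no limma or rank product call, with 2, 2 and no genes at an unadjusted p under 0.05. Gfap differed by -0.89, Aqp4 by 0.01 and Mbp by -0.22. On the 75th percentile scale the astrocyte median was 0.05.

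Among neuron types, forebrain glutamatergic neuron genes were below 0 in 10 of 11 with a median of -0.51. Of them Slc17a7 fell (9.09% against 1.7%), and 2 (18.2% against 11.3%) did not overlap downward. Without WT replicate 1 the median was -0.21, and without En2-/- replicate 1 it was -0.33. Relative to the WT mean the list's median was 0.22, 0.11 and -0.34 on the WT arrays. On the En2-/- arrays it was -0.55, -0.11 and -0.49, so that the genotypes overlapped. The median within the 3 slides was -0.77, -0.15 and -0.07. Camk2a, the main calcium kinase of these neurons, differed by -0.56 (adjusted p = 0.175) and Neurod2 by -0.41. Interneuron genes had a median of -0.15, which was -0.04 without En2-/- replicate 1, and no limma call in 29, with 7 at an unadjusted p under 0.05 and 3 rank product calls, and with -0.49 for Gad1, -0.15 for Gad2 and -0.03 for Slc32a1. Dentate granule, CA2 and CA3 genes had medians of -0.17, -0.11 and -0.23 with no limma call, and with 3, 2 and 1 genes at an unadjusted p under 0.05. Without En2-/- replicate 1 these medians were -0.31, -0.17 and -0.40, and without WT replicate 3 the CA3 median was 0.00. The rank product called 1 dentate gene. On the 75th percentile scale the CA2 median was 0.04. CA1 genes had a median of -0.26, which was 0.09 without En2-/- replicate 1, the array on which they lay 1.04 below the WT mean. Among newborn neuron and progenitor genes, Sox11 rose by 0.92 ± 0.22 (adjusted p = 0.099), with 4 further probes from 0.19 to 1.45, while Dcx, the marker of migrating young neurons, differed by -0.36 with no call.

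Genes of neighbouring tissue differed between single arrays as well as between genotypes. Thalamus genes were above 0 in 15 of 16 with a median of 0.86. Of them 6 rose (37.5% against 1.61%), led by Synpo2 (2.42 ± 0.36), Rgs16 (1.23 ± 0.21) and Ramp3 (1.603 ± 0.28), with Tcf7l2, Ntng1 and Lef1. Synpo2, a marker of thalamic relay neurons, read 8.88, 8.92 and 9.39 in WT and 12.07, 10.66 and 11.74 in En2-/- hippocampus. In the En2-/- mice the list's median lay 1.18, 0.47 and 1.06 above the WT mean, while single WT arrays lay within -0.10 to 0.06 of it. With 1 array left out, no thalamus gene (without WT replicate 1) to 6 were called. A second Synpo2 probe differed by -0.36. Choroid plexus genes, all 14 below 0 with a median of -0.57, ranged from 1.21 to -2.93 between En2-/- arrays and from -0.53 to 0.57 between WT arrays, with no limma call, no unadjusted p under 0.05, 4 rank product calls and no gene without overlap. Without En2-/- replicate 2 their median was 0.35. Ependymal and meningeal genes likewise ranged from -0.36 to 1.33 and from -0.72 to 0.99 between En2-/- arrays. How far the tissue taken with the hippocampus accounts for any list above was not tested.

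**Figure D4:**
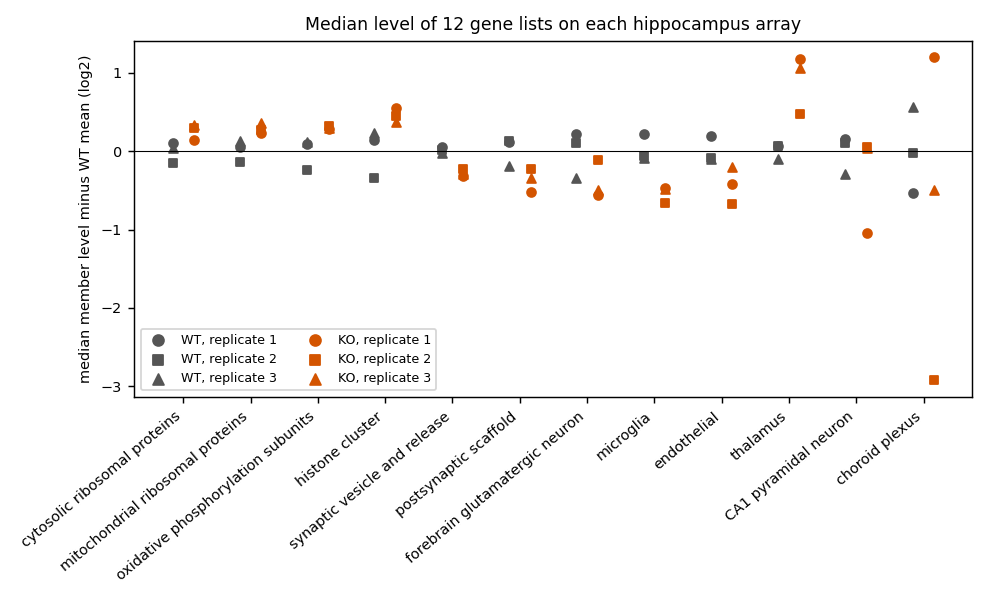
Median level of the tested members of 12 gene lists on each hippocampus array, relative to the WT mean of each gene (log2), for WT (grey) and En2-/- (KO, orange) replicates 1, 2 and 3 (circles, squares, triangles). Vesicle, scaffold and microglia lists are lower on all 3 En2-/- arrays than on all 3 WT arrays, whereas CA1 genes are low on En2-/- replicate 1 alone (-1.04) and choroid plexus genes spread from -2.93 to 1.21.

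Immune genes moved in both directions. Of 24 interferon response genes outside chromosome 17, 16 were below 0 and 2 (8.33% against 1.7% of all genes) were called, both lower. However, 2 of the 24 passed the filter on signal only through the WT arrays, and with the filter on all 6 arrays 1 was called. Xaf1, an interferon-induced regulator of apoptosis (-1.87 ± 0.26, adjusted p = 0.021), fell. Irf7, the interferon regulatory factor, was well above background on the 3 WT arrays and on no En2-/- array, at least 1.59-fold lower (adjusted p = 0.097). Class II histocompatibility genes, which present antigen, differed in sign within the family. H2-Aa, above background on 1 WT array, read 3.53, 3.76 and 4.89 in WT and 7.12, 7.02 and 6.35 in En2-/- hippocampus and rose by 2.77 ± 0.38 (adjusted p = 0.019), H2-Ab1 rose by 1.44 ± 0.31 (adjusted p = 0.080), and H2-Eb1 fell by 1.15 ± 0.17 (adjusted p = 0.026). Over 23 H2 genes the median was 0.00, but the En2-/- arrays stood at 0.50, -0.45 and -0.17 relative to the WT mean, and the median was -0.28 without En2-/- replicate 1 and 0.17 without replicate 2. The complement genes Cfb (2.09 ± 0.21, adjusted p = 0.0068) and C2 (2.36 ± 0.32, adjusted p = 0.019), neighbours in the same chromosome 17 region, rose. Cfb was well above background on 2 of the 3 WT arrays. Il22 was well above background on the 3 En2-/- arrays and on no WT array, at least 3.09-fold higher. Ccl21a, a chemokine with near-identical copies in the genome, was well above background on the 3 WT arrays only, at least 50.8-fold lower in En2-/- hippocampus. Of leukocyte genes S100a9, a calcium-binding protein of neutrophils, rose by 1.47 ± 0.19 (adjusted p = 0.018) and Cd79b of B cells fell by 1.17 ± 0.24 (adjusted p = 0.072). Cd79b was well above background on only 1 En2-/- array, and with the filter on all 6 arrays no leukocyte gene was called lower.

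Genes that respond to activity, stress hormones and time of day gave few calls. Sik1, a kinase induced by cyclic AMP, read 7.10, 7.50 and 6.97 in WT and 8.80, 8.98 and 8.65 in En2-/- hippocampus and rose by 1.62 ± 0.20 (adjusted p = 0.014). It was the only one of 27 immediate early genes called (3.70% against 3.31% of all genes), and Fos differed by 0.43 and Fosb by -0.16. Glucocorticoid response genes were above 0 in 13 of 16 (median 0.32), of which Pdk4, a mitochondrial kinase that spares glucose, rose by 1.13 ± 0.24 (adjusted p = 0.078). The classical members Fkbp5 and Sgk1 differed by -0.21 and 0.05. In the circadian list Per3 fell by 1.11 ± 0.17 (adjusted p = 0.030), 6 of 16 genes (37.5% against 11.3%) had all En2-/- values below the WT values, and Clock differed by 0.02. Med1, a Mediator subunit in the thyroid hormone list, rose by 2.08 ± 0.30 (adjusted p = 0.023), and its 2 further probes differed by -0.26 and 0.00. The lists for neuropeptides, cholesterol synthesis and mTOR signalling held no limma call, with 5, 1 and 8 genes at an unadjusted p under 0.05 and 1 rank product call, in the mTOR list.

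Large families held calls near the background share. Of 324 zinc finger genes named Zfp, 8 rose and 6 fell (4.32% against 3.31% of all genes), among them Zfp236 (1.94 ± 0.19, adjusted p = 0.0061) and Zfp68 (1.39 ± 0.18, adjusted p = 0.018), both with a second probe in the same direction. Of 288 solute carriers, 3 rose and 6 fell (3.13%), including Slc2a4, the insulin-regulated glucose transporter (1.51 ± 0.27, adjusted p = 0.045), and Slc2a5, the fructose transporter present in microglia (-1.97 ± 0.34, adjusted p = 0.044). Olfactory receptor genes were rarely bright, with 90 of 917 tested, of which 9 passed only through the En2-/- arrays and 8 only through the WT arrays. Of these 90, 3 rose and 1, Olfr288, fell (4.44% called against 3.31% of all genes). With the filter on all 6 arrays 1 olfactory receptor gene was called, and it was higher. Olfr288 was above background in WT alone, at least 3.11-fold lower in En2-/- hippocampus. Kallikrein genes of chromosome 7, near-identical copies of each other, held 5 calls in 12 tested, all higher (41.7% against 1.61%). However, 5 of the 12 passed the filter on signal only through the En2-/- arrays, and with the filter on all 6 arrays 1 was called and the median was 0.37 in place of 0.80. Klk1b24 was well above background on no WT array, at least 30.2-fold higher in En2-/- hippocampus. Lists and families covered 112 of the 495 called genes, and 383 were in none.

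Called genes were spread over all chromosomes tested, at 1.84% to 6.66% of the tested genes of each. Chromosome 17 had the highest share, with 48 of 721 genes (29 higher and 19 lower), followed by chromosome 3 with 35 of 744 (4.70%), chromosome 7 with 47 of 1157 (4.06%) and chromosome 5, which carries En2, with 37 of 939 (3.94%). Median differences by chromosome lay between 0.02 and 0.11.

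Whether a genotype difference differed between hippocampus and cerebellum was tested in 1 model over all 12 arrays. The model treated the arrays as independent. The study names 3 mice per genotype for both tissues, so arrays may share a mouse, and the sample titles do not say which. Of 14906 genes, 20 (0.134%) passed an adjusted p under 0.1, of which 15 were more positive and 5 less positive in hippocampus, and 12 of them were called in hippocampus. Shox2, a homeobox gene expressed in the thalamus, was well above background on the 3 En2-/- and no WT hippocampus array, at least 1.90-fold higher. It passed the test between tissues (adjusted p = 0.015), but the size of that difference rests on WT readings not above background. The thalamus genes Synpo2 (3.02 ± 0.43, adjusted p = 0.023) and Rgs16 (1.71 ± 0.27, adjusted p = 0.036) rose in hippocampus, with cerebellum values of -0.62 and -0.50 in the same fit. Gbp7 differed by -1.54 in hippocampus and 0.09 in cerebellum (adjusted p of the difference = 0.020), and Camk1d, a calcium-dependent kinase, by -1.33 and 0.68 (adjusted p = 0.036). No gene named above among synaptic, ribosomal, mitochondrial, microglial or endothelial genes passed this test, so that none of those differences is shown to be particular to the hippocampus. Of 494 called genes with a value in both tissues, 333 had the same sign in cerebellum. The same share over all tested genes was not computed, and the tissues shared slides. The count therefore shows neither a shared nor a separate change.

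**Figure D5:**
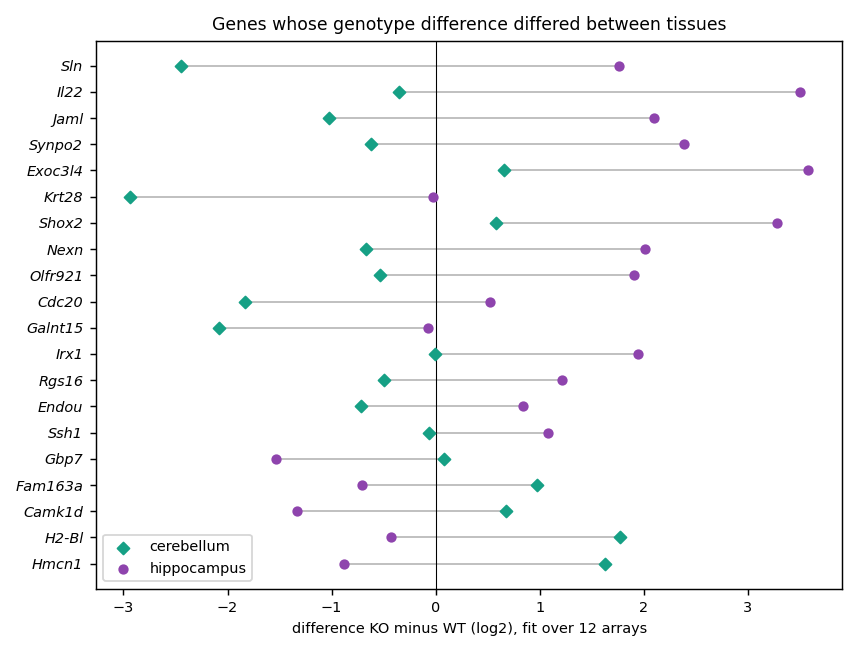
Difference between En2-/- (KO) and WT mice in hippocampus (purple circles) and cerebellum (green diamonds), in log2 of normalized intensity from 1 fit over 12 arrays, for the 20 genes whose difference differed between the tissues at an adjusted p under 0.1. The 15 upper genes are more positive in hippocampus and the 5 lower genes less positive.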

How the data were processed

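The authors deposited, for each array, the background-corrected intensity of every spot from Agilent Feature Extraction 10.7.3.1 with mm9 probe positions, and a table of log2 values for 27534 probes, filtered and quantile normalized with Agi4x44PreProcess. The intensities of the 6 hippocampus arrays were used here on the log2 scale, after removal of control spots and of the 110 to 230 spots per array that carried an outlier flag, and quantile normalized over these arrays. Spots of a probe were averaged, and the probe with the highest mean stood for a gene. Gene names came from the newer annotation in the cerebellum files, which differed for 4691 spots, and were brought to the symbols of a RefSeq gene table (GRCm38.p6). Of 21113 genes, 1123 kept the name in the files, and the rest matched by symbol (17994), accession (1687) or older symbol (309). Testing required a signal well above background on all 3 arrays of either genotype, and at least 2 values in both.

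Genotypes were compared with limma 3.58.1 in R 4.3.3 (lmFit, eBayes, Benjamini-Hochberg, adjusted p under 0.1), and the difference between tissues with an interaction term over 12 arrays. The 73 gene lists and families were chosen with earlier results of these data known and got no test. Named genes were, per list, up to 3 called members in each direction with the smallest p (all of them where 6 or fewer were called), the first genes of a list, the 5 leading genes in each direction among those well above background on all 6 arrays, and En2. Genes that differed between tissues are named as well. A fold for a gene with no array of a genotype above background is a bound set by the lowest signal well above background on each array. Group labels came from the sample titles. Other settings tried were normexp on the mean and local background signals with an offset of 50, the 75th percentile, quantiles over 12 arrays, the log2 table of the authors, no filter or a stricter filter on signal, averaging a gene's probes, a variance trend, an adjusted p under 0.05, the rank product named in the study's methods (written in Python 3.11.15 with numpy 2.4.6, 9 ratios, 100 permutations, P under 0.005 in each direction), a block for the replicate number, and omission of each array in turn. Replicate numbers are also slides. Deviations of same-numbered arrays correlated at -0.20, 0.10 and -0.08, and those of differently numbered arrays at -0.38 to 0.38. With 3 arrays per genotype these values cannot tell whether the numbers also pair the mice. The procedures were tested on simulated data. Precision is limited by having 3 arrays per genotype. Values of a few genes are not reported here.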

Additional observations from a re-analysis of the deposited data

Results flagged for a closer look

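For 20 genes the genotype difference itself differed between hippocampus and cerebellum (limma interaction term, adjusted p under 0.1), and the values here are the hippocampus difference less the cerebellum difference in log2 units. Of the 15 positive values, 13 were 4.20 for Sln, a muscle calcium pump regulator, 3.12 for the adhesion molecule Jaml, 3.02 for Synpo2, 2.93 for Exoc3l4, 2.92 for the keratin Krt28, 2.68 for Nexn, an actin-binding protein, 2.45 for Olfr921, 2.36 for Cdc20, an activator of the anaphase-promoting complex, 2.01 for Galnt15, 1.95 for the homeobox gene Irx1, 1.71 for Rgs16, 1.55 for Endou and 1.15 for Ssh1, a cofilin phosphatase. Of the 5 negative values, 4 were -2.20 for H2-Bl, -2.01 for Camk1d, -1.68 for Fam163a and -1.62 for Gbp7. For H2-Bl, further probes in hippocampus differed by 3.42 and 4.49, against the chosen probe's direction. The remaining 3 fitted values, 3.85 for the cytokine Il22, 2.70 for Shox2 and -2.50 for Hmcn1, rest on a hippocampus genotype with no array above background and give no size. Not all of these values come from the hippocampus. Krt28 and Galnt15 differed by -0.02 and -0.08 in hippocampus, and by -2.94 and -2.08 in cerebellum.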

How the results depend on the processing

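The count of 495 called genes (241 higher, 254 lower) was 280 (151 and 129) without a filter on signal, 204 (109 and 95) at an adjusted p under 0.05 and 198 (115 and 83) with the replicate number, which is also the slide, as a block. The block used numbers that share a slide and are not known to pair the mice. With 1 array left out the count lay between 98 and 594 (64 to 275 higher, 34 to 319 lower). It stayed within 1.5 times 495 under the other settings. The count of 20 genes that differed between tissues lay between 12 (without cerebellum En2-/- replicate 3) and 38 (without hippocampus En2-/- replicate 2 or cerebellum WT replicate 3). On the 75th percentile scale the medians were -0.16 for vesicle genes, 0.52 for cytosolic and 0.43 for mitochondrial ribosomal proteins, 0.55 for oxidative phosphorylation subunits and 0.68 for histone genes. On that scale other list medians changed sign, among them 0.043 for CA2, 0.050 for astrocyte, 0.061 for thyroid hormone, 0.0076 for Wnt and GSK3 and 0.11 for glycolysis genes, 0.064 for tubulins, 0.11 for ubiquitin-conjugating enzymes, 0.049 for ion-transport ATPases and 0.043 for MAP kinases. With the mean of a gene's probes the medians were -0.34 for vesicle genes, and, with a change of sign, -0.15 for monoamine receptors and -0.15 for protein phosphatase subunits. With 1 array left out the vesicle median lay between -0.30 and -0.26, and that of forebrain glutamatergic genes between -0.61 and -0.21. Among the medians that changed sign with 1 array left out, values ranged from -0.11 to 0.21 for neocortical layer genes and from -0.19 to 0.068 for Wnt and GSK3 genes (positive without En2-/- replicate 1), from -0.12 to 0.15 for leukocyte genes (positive without En2-/- replicate 2), from -0.077 to 0.047 for ubiquitin-conjugating enzymes (positive without WT replicate 1 or En2-/- replicate 3) and from -0.057 to 0.054 for phosphatase subunits (negative without WT replicate 3). The cause of these changes was not tested. Named genes lost their call in 585 pairs of gene and setting, over 83 genes, and none changed direction. Signal over local background, at a median of 5.78 to 7.62 per array, limits dim genes.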
